A study of Mus musculus with 8 samples.

Results

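In kidney RNA from mice that model MUC1 kidney disease, 10 genes were examined: Itgav, which encodes the alpha-v integrin subunit, the beta subunit genes Itgb1, Itgb3, Itgb5, Itgb6 and Itgb8, the ligand genes Tgfb1, Tgfb2 and Tgfb3, and Ltbp1, which encodes a latent TGF-beta binding protein. They were found by exact match of the gene symbol. All 10 are among the 21759 genes of the table, and all 10 passed the filter on low counts that left 13474 genes for testing. Itgb6 was chosen by its count values in this same comparison, where it stood among the decreased genes, so its values are given as a description, with no test. The other 9 were added as related integrin chains and as ligands and a carrier of the pathway.

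All animals were male knock-in mice of the disease model at 8 months of age. Of these, 4 received BRD4780, a small molecule, at 50 mg/kg daily for 7 days and 4 received saline vehicle daily for 7 days. Both groups carry the disease allele, so every comparison is between treated and untreated diseased kidneys. The sample titles call the treatment AGN50 where the treatment label says BRD4780. Each library was made from a sagittal kidney slice, so fewer cells of a type and less RNA per cell cannot be told apart in any value below.

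Integrins are receptors of 1 alpha and 1 beta chain that bind matrix proteins. The alpha-v chain pairs with each of the 5 beta chains measured here. The beta 5, beta 6 and beta 8 chains are known with alpha-v as their partner, while beta 1 pairs with many alpha chains and beta 3 also with the platelet chain alpha-IIb. TGF-beta is secreted in a latent complex with its own propeptide, which latent TGF-beta binding proteins anchor in the matrix. Integrins alpha-v beta 6 and alpha-v beta 8 bind an RGD sequence in the propeptides of TGF-beta 1 and TGF-beta 3 and release the active ligand, whereas the propeptide of TGF-beta 2 lacks that sequence. Integrin beta 6 is restricted to epithelia, and its activation of TGF-beta is best known from fibrosis of lung and kidney.

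Library totals were 5.739 to 28.18 M expected counts in the BRD4780 group and 16.64 to 28.55 M in the vehicle group, and the shallowest library was BRD4780 replicate 4. BRD4780 replicate 3 stood apart from its group. Its root-mean-square distance over all tested genes was 0.53 log2 units to the rest of the BRD4780 libraries and 0.43 to the vehicle mean, whereas each other library lay closer to its own group. In edgeR's quasi-likelihood test 2.92% of all tested genes passed an adjusted p of 0.05, with 2.30% higher and 0.623% lower after BRD4780. Without BRD4780 replicate 3 these shares were 12.1% and 11.3%. Of the same 13474 genes with all 8 libraries, limma-voom called 1654 higher and 1501 lower. DESeq2, run on all 21759 genes with its own filter, called 850 genes higher and 505 lower. The number of genes it tested is not given here, so its totals are not shares of the 13474. The counts that both tools gave for the lists below are to be read beside these totals. The share of all tested genes at an unadjusted p under 0.05 is not given here. List counts at that level therefore have no background beside them, and nothing is read from them.

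Among the 10 genes, Itgb6 was lower with BRD4780 and Itgb3 was higher, against backgrounds of 0.623% lower, 2.30% higher and 2.92% in either direction among all tested genes. Since Itgb6 was chosen from this contrast, nothing is read from the count. The remaining 8 genes did not pass the threshold. The same count of 1 lower and 1 higher was obtained without BRD4780 replicate 3. No member was called lower without vehicle replicate 2, and none was called higher when any library other than BRD4780 replicate 3 was left out. The member called lower was always Itgb6, which was chosen from this contrast, so these calls are no support for its decrease.

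Itgb6 lies on the minus strand of chromosome 2, from 60598292 to 60722643 (mm10). The sequence before its farthest annotated start is shown because Itgb6 is the gene around which the other 9 were gathered. It is taken from RefSeq (GRCm38.p6), chr2:60722644-60722853, minus strand, read 5′ to 3′, and the capitals mark a SMAD box, the short element that TGF-beta effectors can bind.
Itgb6 upstream: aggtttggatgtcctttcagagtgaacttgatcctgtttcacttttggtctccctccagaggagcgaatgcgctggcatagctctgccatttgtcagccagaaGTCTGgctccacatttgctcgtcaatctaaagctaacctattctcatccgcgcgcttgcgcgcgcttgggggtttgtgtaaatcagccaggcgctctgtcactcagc
The search used CAGAC and its reverse complement GTCTG, and, for AP-1, TGANTCA on both strands. The 2 motifs share no overlap in this stretch, since TGANTCA had no match. A SMAD box is common: of 32851 RefSeq promoter windows of 300 bases, 49.6% held one and 7.8% held TGANTCA. RefSeq windows were matched for 8 of the 10 genes, in 10 windows, of which 6 windows from 5 genes held CAGAC or GTCTG and none held TGANTCA. Itgb3 and Tgfb3 had no entry.

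Itgb6 stood at 50.3, 34.8, 56.5 and 58.4 CPM (counts scaled to a common library total after TMM) in BRD4780 replicates 1 to 4. In vehicle replicates 1 to 4 it stood at 95.0, 104.4, 97.0 and 99.6 CPM. Every treated kidney lay below every vehicle kidney, and BRD4780 replicate 2 was the lowest of all. The groups averaged 50.0 ± 10.7 CPM with BRD4780 and 99.0 ± 4.04 CPM with vehicle (SD, n = 4 per group), a log2 fold change of -0.99. The treated level was 0.502 of the vehicle level. BRD4780 replicate 3, which stood apart across all genes, was within the range of the other treated libraries here, and the log2 fold change without it was -1.07.

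**Figure D1:**
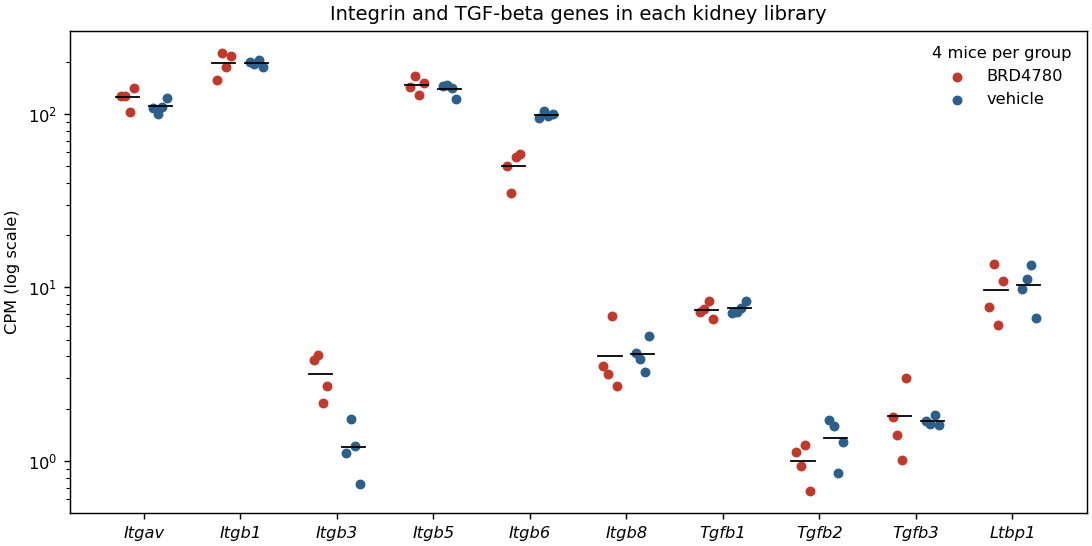
CPM of each of the 10 genes on a log axis, one point per kidney library, BRD4780 in red and vehicle in blue, with a black line at each group mean. The groups lie apart for Itgb6, with treated libraries at 34.8 to 58.4 CPM and vehicle libraries at 95.0 to 104.4 CPM, and for Itgb3 in the other direction, while they overlap for the other 8 genes.

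Itgb3, on the plus strand of chromosome 11 from 104608000 to 104670476 (mm10), encodes the beta chain of the vitronectin receptor alpha-v beta 3 and of the platelet integrin. It was read at 3.81, 4.08, 2.14 and 2.68 CPM in BRD4780 replicates 1 to 4, and at 1.11, 1.73, 1.22 and 0.733 CPM in vehicle replicates 1 to 4. All 4 treated libraries were above all 4 vehicle libraries, from counts that were low throughout: 286.8 expected counts summed over the BRD4780 group and 115.0 over the vehicle group. Of all tested genes, 12.6% had groups that did not overlap, in either direction. Itgb3 rose 2.67-fold (95% interval 1.66 to 4.29; 3.18 ± 0.922 CPM with BRD4780 and 1.20 ± 0.412 CPM with vehicle, SD, n = 4 per group; edgeR adjusted p = 0.0441). The call was close to the threshold. Leaving out any single library other than BRD4780 replicate 3 lost it, with edgeR adjusted p = 0.0647 without vehicle replicate 4, 0.0755 without vehicle replicate 2, 0.0911 without BRD4780 replicate 4, 0.102 without vehicle replicate 3, 0.118 without BRD4780 replicate 2, 0.130 without vehicle replicate 1 and 0.131 without BRD4780 replicate 1. It was 0.00465 without BRD4780 replicate 3.

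Itgav (chromosome 2, 83724397 to 83806916, plus strand), the common partner of these beta chains, was measured at 126.6, 126.9, 102.5 and 141.5 CPM in BRD4780 replicates 1 to 4. In vehicle replicates 1 to 4 it was at 108.5, 99.8, 109.9 and 123.0 CPM. The groups overlapped, since BRD4780 replicate 3 fell inside the vehicle range. The treated level was 1.12 times the vehicle level, with a 95% interval of 0.958 to 1.32 (edgeR adjusted p = 0.335). Itgav and Itgb6 were then set against each other. Per kilobase of longest transcript, Itgb6 over Itgav was 0.583, 0.403, 0.810 and 0.606 in BRD4780 replicates 1 to 4 and 1.29, 1.53, 1.30 and 1.19 in vehicle replicates 1 to 4. Every BRD4780 kidney thus held less Itgb6 than Itgav transcript per length, and every vehicle kidney held more.

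Itgb5, which encodes the beta chain of another vitronectin receptor, was read at 142.1, 165.8, 128.2 and 150.9 CPM in BRD4780 replicates 1 to 4 and at 144.9, 146.0, 141.3 and 122.0 CPM in vehicle replicates 1 to 4. The groups overlapped. Its fold change was 1.06 (95% interval 0.914 to 1.23; edgeR adjusted p = 0.621). Itgb1, the beta chain of the collagen, laminin and fibronectin receptors, had 157.2, 223.7, 185.4 and 216.7 CPM in BRD4780 replicates 1 to 4 and 199.5, 192.8, 203.5 and 186.3 CPM in vehicle replicates 1 to 4. The treated libraries spread to both sides of the vehicle range, and the fold change was 1.00 (95% interval 0.846 to 1.18; edgeR adjusted p = 0.999). Itgb8, whose product with alpha-v activates latent TGF-beta as well, stood at 3.52, 3.15, 6.80 and 2.68 CPM in BRD4780 replicates 1 to 4 and at 4.16, 3.87, 3.23 and 5.26 CPM in vehicle replicates 1 to 4. The highest Itgb8 value of all was in BRD4780 replicate 3. Its fold change was 1.00 with a wide 95% interval of 0.647 to 1.55 (edgeR adjusted p = 0.997), and the log2 fold change was -0.38 without that library.

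As a share of the 5 beta subunits, in CPM per kilobase, Itgb6 made up 10.9%, 6.17%, 11.7% and 10.5% in BRD4780 replicates 1 to 4. The share was 16.9%, 18.5%, 17.2% and 19.3% in vehicle replicates 1 to 4. The groups did not overlap, and the mean share was 9.82% ± 2.48 with BRD4780 and 18.0% ± 1.10 with vehicle (SD, n = 4 per group). Itgb3 remained a trace component, at 0.514% ± 0.154 with BRD4780 and 0.179% ± 0.0568 with vehicle (SD, n = 4 per group). Itgb5 had 41.7% ± 2.90 with BRD4780 and 36.7% ± 1.52 with vehicle, and Itgb1 had 47.5% ± 3.17 and 44.7% ± 1.16 in the same order (SD, n = 4 per group). Among Itgb5, Itgb6 and Itgb8, whose chains are known with alpha-v as partner, Itgb6 accounted for 18.8% ± 4.48 with BRD4780 and 32.6% ± 2.03 with vehicle (SD, n = 4 per group). The summed level of the 5 beta subunits overlapped between groups, at 96.0 to 117.5 CPM per kilobase with BRD4780 and 107.5 to 117.5 with vehicle.

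**Figure D2:**
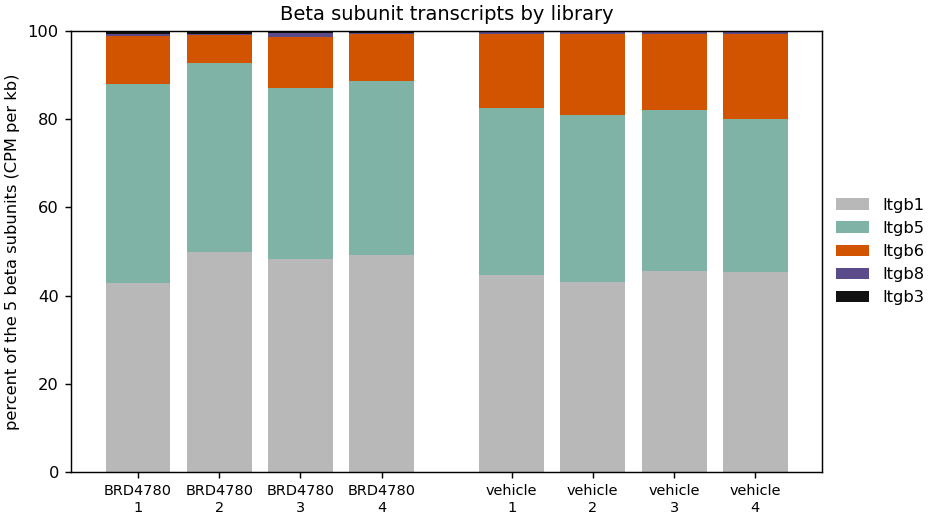
Percent of the summed CPM per kilobase of Itgb1, Itgb3, Itgb5, Itgb6 and Itgb8 in each of the 8 libraries, BRD4780 on the left and vehicle on the right. The orange Itgb6 segment spans 6.17% to 11.7% in the BRD4780 libraries and 16.9% to 19.3% in the vehicle libraries, with Itgb3 and Itgb8 barely visible at the top.

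The ligand genes were at low levels and gave no detectable difference. Tgfb1, the most abundant of the 3 ligand transcripts per length, stood at 7.24, 7.48, 8.30 and 6.53 CPM in BRD4780 replicates 1 to 4 and at 7.07, 7.22, 7.59 and 8.37 CPM in vehicle replicates 1 to 4. The groups overlapped, and the fold change of 0.985 had a 95% interval of 0.808 to 1.20 (edgeR adjusted p = 0.937). Tgfb2, whose propeptide lacks the RGD sequence, was at 1.12, 0.939, 1.24 and 0.669 CPM in BRD4780 replicates 1 to 4 and at 1.72, 1.58, 0.853 and 1.29 CPM in vehicle replicates 1 to 4. Its fold change was 0.750, with a 95% interval of 0.481 to 1.17 (edgeR adjusted p = 0.394). Only 92.0 and 135.0 expected counts were summed over the BRD4780 and vehicle groups, so a decrease of the size seen in Itgb6 lay inside that interval. Tgfb3 had 1.78, 1.41, 1.01 and 3.01 CPM in BRD4780 replicates 1 to 4 and 1.69, 1.62, 1.83 and 1.60 CPM in vehicle replicates 1 to 4. The 3.01 CPM of BRD4780 replicate 4, the shallowest library, rested on 18.00 expected counts. The Tgfb3 fold change was 0.992 (95% interval 0.622 to 1.58; edgeR adjusted p = 0.986). Summed over the 3 ligands, the level was 9.83 to 10.6 CPM with BRD4780 and 10.3 to 11.3 CPM with vehicle. Per kilobase, Tgfb1 made up 79.7% ± 6.22 of the 3 with BRD4780 and 79.3% ± 2.34 with vehicle (SD, n = 4 per group).

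Ltbp1, which tethers the latent complex to the matrix, stood at 7.73, 13.7, 6.08 and 10.9 CPM in BRD4780 replicates 1 to 4 and at 9.80, 11.2, 13.5 and 6.62 CPM in vehicle replicates 1 to 4. The groups overlapped, and the fold change was 0.927 (95% interval 0.609 to 1.41; edgeR adjusted p = 0.842). Itgav, Tgfb2 and Tgfb3 share exon bases with annotated genes of the other strand, and their reads cannot be told apart from those of such genes unless strand was used in counting.

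Per kilobase of longest transcript, the order of the levels over all 8 libraries was Itgb1, Itgb5, Itgav, Itgb6, Tgfb1, Ltbp1, Tgfb3, Itgb8, Itgb3 and Tgfb2. Itgb1 averaged 51.3 ± 8.03 with BRD4780 and 51.3 ± 1.98 with vehicle, in CPM per kilobase (SD, n = 4 per group). Tgfb2, at the other end, averaged 0.194 ± 0.0484 and 0.266 ± 0.0752 in the same order and unit. Itgb1 and Itgb5 overlapped in range over the 8 libraries, as did Itgav and Itgb6, and so did each neighbouring pair from Tgfb3 downwards. The steps from Itgb5 to Itgav, Itgb6 to Tgfb1, Tgfb1 to Ltbp1 and Ltbp1 to Tgfb3 were each larger than the spread. The order of the means also differed between groups. With BRD4780 the Itgb3 mean of 0.550 ± 0.159 CPM per kilobase was above those of Tgfb3 (0.533 ± 0.255) and Itgb8 (0.480 ± 0.223). With vehicle its mean of 0.207 ± 0.0711 was below that of Tgfb2, at 0.266 ± 0.0752 (SD, n = 4 per group). These gaps were smaller than the SDs, so the order of Itgb3 and these nearest genes was not resolved within either group. The ranges of Itgb3 and Tgfb2 lay apart with BRD4780. With vehicle those of Itgb8, at a mean of 0.491 ± 0.101, and Itgb3 lay apart. Itgb6 lay below Itgav in the BRD4780 means, at 10.4 ± 2.23 against 17.6 ± 2.29 CPM per kilobase, and above it in the vehicle means, at 20.6 ± 0.840 against 15.6 ± 1.36 (SD, n = 4 per group).

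The wider pathway was described by gene lists, one for each role. Of 13 tested genes of the latent complex and its activation, 1 was lower and 0 higher, with a median log2 fold change of -0.20 against 0.01 over all tested genes. The gene that fell was Plau, the urokinase plasminogen activator, at 730.0 ± 108.7 CPM with BRD4780 and 1070 ± 109.9 CPM with vehicle (SD, n = 4 per group; 0.682 of the vehicle level, edgeR adjusted p = 0.0452). The call was lost without BRD4780 replicate 1, 2 or 4 and without vehicle replicate 1, 2 or 3, at edgeR adjusted p of 0.0756 to 0.136. Fbn1, the fibrillin to which latent complexes attach, was at 3.08 ± 0.184 CPM with BRD4780 and 4.67 ± 0.884 CPM with vehicle and did not pass (SD, n = 4 per group; edgeR adjusted p = 0.0915; chosen after its values were seen). Mmp14, a membrane protease, likewise chosen after its values were seen, had 5.77 ± 1.36 CPM with BRD4780 and 4.63 ± 0.781 CPM with vehicle (SD, n = 4 per group; edgeR adjusted p = 0.373).

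Of 16 receptors and SMAD pathway genes, 2 were higher and 0 lower, with a median log2 fold change of 0.06. Eng, which encodes endoglin, a co-receptor of endothelium, stood at 81.5 ± 6.84 CPM with BRD4780 and 49.7 ± 10.4 CPM with vehicle (SD, n = 4 per group; 1.64-fold, edgeR adjusted p = 0.0327). Acvrl1, which encodes ALK1, an endothelial type I receptor, stood at 22.7 ± 0.318 CPM with BRD4780 and 14.6 ± 2.66 CPM with vehicle (SD, n = 4 per group; 1.56-fold, edgeR adjusted p = 0.0307). Both calls were lost without BRD4780 replicate 1, 2 or 4 and without vehicle replicate 1 or 2, at edgeR adjusted p of 0.0747 to 0.110 for Eng and 0.0802 to 0.108 for Acvrl1. Both share exon bases with genes of the other strand. Both genes are typical of endothelium, and 9 of 9 endothelial markers had positive fold changes, of which 2 passed, Flt1 and Egfl7, against 8 in DESeq2, 6 in limma-voom and 6 in edgeR without BRD4780 replicate 3. Their summed level was 281.0 to 345.6 CPM with BRD4780 and 133.3 to 245.9 CPM with vehicle, and its part in the Eng and Acvrl1 result was not tested. The signalling receptors Tgfbr1 and Tgfbr2 had log2 fold changes of 0.38 ± 0.13 and -0.21 ± 0.10 (SE) and did not pass, and neither did Smad2, Smad3, Smad4 or Smad7, at log2 fold changes of -0.04, -0.36, 0.11 and 0.04. These 6 genes were chosen after their values were seen.

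Genes that TGF-beta is known to induce gave 0 of 19 past the threshold in edgeR, with a median log2 fold change of 0.15. At an unadjusted p under 0.05 there were 5, DESeq2 called 1 and limma-voom 3. The values pointed both ways, with 14 positive and 5 negative fold changes. Among matrix genes, the log2 fold changes (± SE) were -0.59 ± 0.23 for the collagen gene Col3a1 and -0.51 ± 0.20 for the fibronectin gene Fn1. They were 0.37 ± 0.13 and 0.54 ± 0.21 for the collagen genes Col1a2 and Col5a1, and 1.38 ± 0.47 for the crosslinking enzyme gene Lox. Apart from Col1a2, the genes named in this group were chosen after their values were seen.

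Of 11 ligands of alpha-v integrins, 1 was higher and 0 lower, and the median log2 fold change was -0.28. Mfge8, a bridging protein bound by alpha-v beta 3 and alpha-v beta 5, stood at 72.9 ± 10.9 CPM with BRD4780 and 47.7 ± 6.45 CPM with vehicle (SD, n = 4 per group; 1.52-fold, edgeR adjusted p = 0.0400). The Mfge8 call was lost without each library other than BRD4780 replicate 3, at edgeR adjusted p of 0.0578 to 0.109. Spp1, which encodes osteopontin and is abundant in kidney epithelium, was at 852.2 ± 116.3 CPM with BRD4780 and 854.3 ± 74.4 CPM with vehicle (SD, n = 4 per group; edgeR adjusted p = 0.988; chosen after its values were seen). Among 18 other integrin subunits none passed in edgeR, 1 had an unadjusted p under 0.05, and DESeq2 called 0 and limma-voom 1. The smallest p belonged to Itga5, the fibronectin receptor chain, at 9.01 ± 1.45 CPM with BRD4780 and 6.23 ± 1.20 CPM with vehicle (SD, n = 4 per group; edgeR adjusted p = 0.110). Integrin cytoplasmic partners had 0 of 20 past the threshold, with 6 at an unadjusted p under 0.05, 3 called by DESeq2 and 5 by limma-voom. Over all genes, DESeq2 and limma-voom also called more than edgeR, as given above. Tln2, a talin that links integrins to actin, led them at 268.2 ± 51.4 CPM with BRD4780 and 363.8 ± 13.2 CPM with vehicle (SD, n = 4 per group; edgeR adjusted p = 0.0745). BMP and activin ligands and antagonists had 1 of 13 higher and 0 lower. This was Gdf15, a stress-induced member of the TGF-beta superfamily, at 9.83 ± 1.69 CPM with BRD4780 and 5.24 ± 0.935 CPM with vehicle (SD, n = 4 per group; 1.85-fold, edgeR adjusted p = 0.0346). Gdf15 lost the call without each library other than BRD4780 replicate 3 (edgeR adjusted p of 0.0572 to 0.108) and after thinning (0.0569). Without BRD4780 replicate 3, where 12.1% of all tested genes were higher and 11.3% lower, the calls higher and lower were 0 and 2 for the latent complex, 4 and 2 for receptors and SMADs, and 2 and 0 for responsive genes. They were 2 and 0 for other integrins, 1 and 0 for alpha-v ligands, 1 and 4 for cytoplasmic partners, and 4 and 2 for BMP and activin genes.

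**Figure D3:**
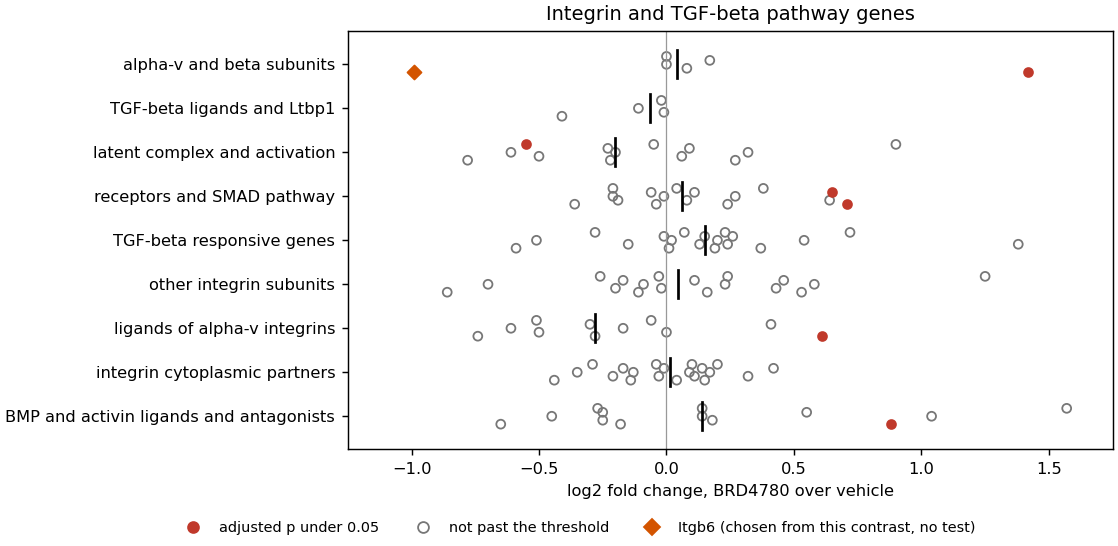
Log2 fold change (BRD4780 over vehicle) of each tested gene in 9 groups of integrin and TGF-beta genes, with filled red points past an adjusted p of 0.05, open points not past it, an orange diamond for the untested Itgb6 and a black line at each group's median. The group medians lie between -0.28 and 0.15, and the top row holds Itgb6 at -0.99 and Itgb3 at 1.42.

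Markers of the nephron segments in which Itgb6 could be made were set beside it. The thick ascending limb list had 3 of 9 genes lower and 0 higher, against 6 called in DESeq2, 5 called in limma-voom and 6 lower in edgeR without BRD4780 replicate 3. Its summed level was 2528 to 3971 CPM with BRD4780 and 3685 to 4889 CPM with vehicle. Kcnj1 and Cldn19, the channel ROMK and a tight junction claudin of that segment, had log2 fold changes of -0.78 ± 0.11 and -0.92 ± 0.19 (SE). The Kcnj1 call was lost without BRD4780 replicate 1 or vehicle replicate 2, and that of Cldn19 without any library other than BRD4780 replicate 3 or vehicle replicate 4. Set against those markers, Itgb6 amounted to 13.8 to 18.9 CPM per 1000 marker CPM with BRD4780 and 20.7 to 26.3 with vehicle, without overlap. Umod, named after its values were seen, made up most of that sum. It averaged 1647 of 3111 CPM with BRD4780 and 2365 of 4297 CPM with vehicle. Its log2 fold change was -0.52 ± 0.16 (SE; edgeR adjusted p = 0.0974). Those of Kcnj1 and Cldn19, the 2 of smallest p, were nearer to the -0.99 of Itgb6, but the list median was -0.45. Of the 9 markers, 8 had negative fold changes and 1 a positive one, Ptger3 at 0.13, named as the highest of the list. Whether Itgb6 fell beyond these markers was not tested. Markers of the distal convoluted tubule had 1 of 6 higher, Trpm6, a call lost without each library other than BRD4780 replicate 3 (edgeR adjusted p of 0.0544 to 0.140) and after thinning (0.0666). DESeq2 called 2, limma-voom 3 and edgeR without BRD4780 replicate 3 called 2. The list had a summed level of 820.6 to 1209 CPM with BRD4780 and 624.3 to 929.0 CPM with vehicle. Against them Itgb6 amounted to 42.4 to 58.7 CPM per 1000 with BRD4780 and 107.2 to 167.2 with vehicle. Collecting duct principal cell markers had 0 of 8 changed, with 3 at an unadjusted p under 0.05, 2 called by DESeq2 and 1 by limma-voom. They summed to 563.5 to 1104 CPM with BRD4780 and 803.4 to 1267 CPM with vehicle, and Itgb6 per 1000 of these overlapped between groups, at 31.6 to 100.3 and 76.5 to 124.0. BRD4780 replicate 3 had the lowest principal cell markers and gave the highest of the treated ratios.

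Itgb3 was set beside markers of glomerulus, vessel and platelet. All 8 podocyte markers had positive fold changes and 3 passed, against 6 in DESeq2, 7 in limma-voom and 7 in edgeR without BRD4780 replicate 3. They had a summed level of 207.8 to 313.9 CPM with BRD4780 and 66.2 to 147.0 CPM with vehicle. Podxl made up most of that sum, averaging 148.6 of 266.5 CPM with BRD4780 and 58.7 of 112.4 CPM with vehicle. Nphs1, the slit diaphragm protein nephrin, had 19.7 ± 3.74 CPM with BRD4780 and 4.80 ± 2.02 CPM with vehicle (SD, n = 4 per group). Per 1000 podocyte marker CPM, Itgb3 was 14.8, 14.2, 10.3 and 8.53 CPM in BRD4780 replicates 1 to 4 and 7.57, 15.9, 9.56 and 11.1 CPM in vehicle replicates 1 to 4. The groups overlapped on this scale, unlike on the CPM scale. Per 1000 endothelial marker CPM, Itgb3 averaged 10.3 ± 3.05 with BRD4780 and 5.97 ± 1.77 with vehicle (SD, n = 4 per group). The ranges of 7.60 to 13.6 with BRD4780 and 4.84 to 8.59 with vehicle overlapped only through vehicle replicate 2. The part of podocyte or endothelial content in the Itgb3 result was not tested. Of the platelet markers Pf4, Gp9, Gp1bb and Ppbp were all below the filter on low counts, with at most 3 counts in any library for Gp9. Itga2b, the alpha chain that pairs with beta 3 in platelets, had a log2 fold change of -0.02 ± 0.14 (SE).

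**Figure D4:**
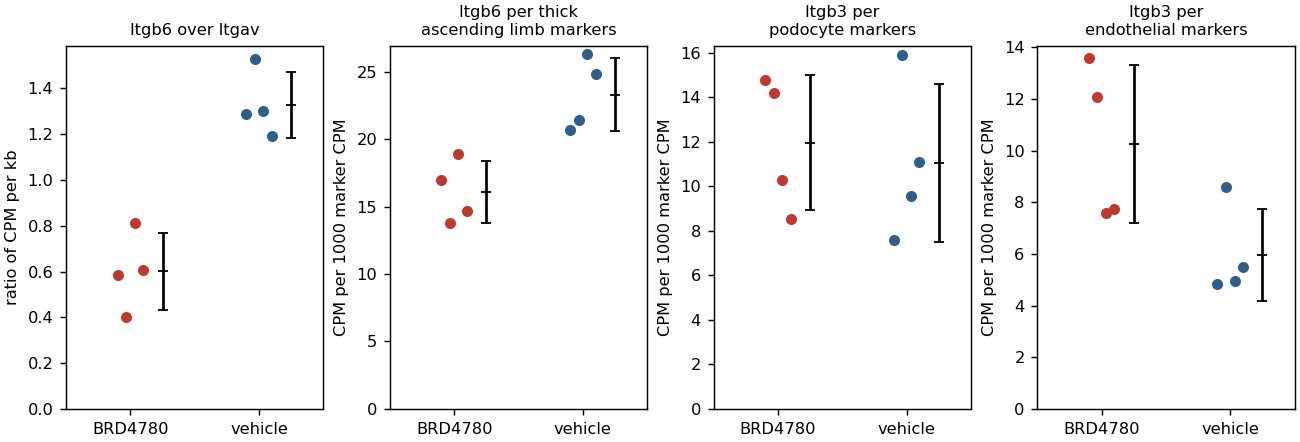
From left to right, Itgb6 over Itgav (CPM per kilobase), Itgb6 per 1000 CPM of thick ascending limb markers, and Itgb3 per 1000 CPM of podocyte and of endothelial markers, one point per library with the group mean and SD beside them. The Itgb6 panels show the groups apart, at 0.403 to 0.810 against 1.19 to 1.53 in the first, while the Itgb3 panels show BRD4780 and vehicle libraries overlapping.

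The other cell types were described in the same way. Proximal tubule markers had 1 of 10 higher and 0 lower, Pck1 at 1.52-fold, against 1 called in DESeq2, 4 in limma-voom, and 1 higher and 3 lower in edgeR without BRD4780 replicate 3. Leaving out any other library lost the Pck1 call, at edgeR adjusted p of 0.0578 to 0.110. The list summed to 15475 to 21651 CPM with BRD4780 and 16697 to 17850 CPM with vehicle. Injured tubule markers had 0 of 8 changed, with 2 at an unadjusted p under 0.05, 0 called by DESeq2 and 2 by limma-voom. Clu and Sox9 had the smallest p, at log2 fold changes of 0.42 and 0.83. Of the 8, 3 had positive and 5 negative fold changes, and the median log2 fold change was -0.04. Fibroblast, pericyte and mesangial markers had 0 of 9 changed, with 1 at an unadjusted p under 0.05, 1 called by DESeq2 and 1 by limma-voom. Their summed level was 130.7 to 166.1 CPM with BRD4780 and 127.8 to 141.7 CPM with vehicle. Macula densa markers had 1 of 4 higher, Robo2, and none lower. The other 3 had negative fold changes, with Pappa2 at a log2 fold change of -0.63, and the list median was -0.18. The Robo2 call was lost without BRD4780 replicate 1, 2 or 4, without vehicle replicate 2 and after thinning, at edgeR adjusted p of 0.0556 to 0.0944. No marker passed in edgeR among 6 of intercalated cells, 7 of macrophages, 1 of T cells, 3 of erythroid cells, 4 of adipocytes and 6 of urothelium. Their median log2 fold changes were -0.08, -0.27, 0.73, -1.39, -1.96 and -0.32 in that order. In the same order, 2, 1, 1, 3, 2 and 2 of them had an unadjusted p under 0.05, DESeq2 called 2, 1, 0, 0, 0 and 1, and limma-voom called 3, 2, 0, 3, 0 and 0. Without BRD4780 replicate 3, edgeR called 3, 2, 0, 2, 0 and 1 in that order, and 1 fibroblast, pericyte and mesangial marker. Erythroid markers summed to 153.8 to 781.6 CPM with BRD4780 and 477.0 to 1576 CPM with vehicle.

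The genes whose profile over the 8 libraries lay nearest to that of Itgb6 were sought among the 11483 tested genes whose mean log2 CPM reached 1. The measure was the root-mean-square difference of log2 CPM after centring each gene, and since Itgb6 was chosen for its group difference, any near gene has a like one. The nearest were Defb29, a beta-defensin gene, at 0.172 log2 units, Akr1c21, an aldo-keto reductase gene, at 0.182, and Ckb, the brain-type creatine kinase, at 0.189. They were followed by Dcdc2a, a doublecortin-domain gene, at 0.192, Irx1, a homeobox gene of nephron patterning, at 0.206, and Kcnj1 at 0.207. The median over all candidates was 0.575. Of the 6 other members at that level, the nearest was Tgfb1 at 0.547 and the farthest Ltbp1 at 0.705, and Itgav stood at 0.648. Irx1, for example, was at 21.2, 18.7, 24.5 and 22.6 CPM in BRD4780 replicates 1 to 4, against a vehicle mean of 40.3 ± 6.55 CPM (SD, n = 4).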

How the data were processed

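The deposited table holds the authors' expected counts, which are estimated and unscaled, of which 15.1% to 28.9% per library were not whole numbers (tolerance 0.001). STAR 2.5.2b, RSEM 1.3.0 and Picard are the tools and mm10 and hg19 the builds named, per the submitters' processing notes, with no role stated. Annotation, read filters and strand setting: not given in the sources used here. Libraries used oligo-dT capture and a stranded kit, per the labels' protocols. The table has 22121 entries, and 343 repeated symbols with identical values were collapsed. It has 1 column of per-sample values that matched no sample analysed, and it was not used.

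Counts were rounded, kept with filterByExpr (minimum count 10) and scaled by TMM. BRD4780 was compared with vehicle by edgeR 4.0.16's quasi-likelihood test under R 4.3.3 with no covariate, with Benjamini-Hochberg adjustment over 13474 genes at 0.05. Standard errors are the absolute log2 fold change over the square root of F, and 95% intervals use the t distribution of the fit. Alternatives were limma 3.58.1, DESeq2 1.42.0, other filters, scaling, thinning and each library left out. The fit was tested on simulated data.

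Groups follow the treatment label. Replicate numbers follow deposition order and pair nothing. The design text gives 4 mice per arm, and p-values measure the spread between these libraries. No pair of libraries was alike within sampling noise. Coordinates and lengths come from GENCODE M21 (mm10). The members and lists were chosen with earlier results of these data known, and the ratios to markers were chosen after the values were seen. The set of named genes holds the 10 members and, from each pathway list, up to 4 past the threshold or else the smallest p. From each marker list it holds up to 2 genes by smallest p, and the 6 genes nearest to Itgb6 complete it. Some marker genes of this set are not printed in the text. Any other gene is named with a remark on its choice. Ccn1, Ccn2, Nrros and Adgre1 were not analysed here. A count of 0 allows up to 3 counts, 0.105 to 0.523 CPM depending on the library, for counting error only.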

Additional observations from a re-analysis of the deposited data

How the results depend on the processing

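Numbers of called genes depended strongly on the libraries and the tool. Leaving out each library in turn gave 26 to 1647 genes higher and 5 to 1537 lower over all genes tested, against 310 and 84 with all 8, and the highest numbers came without BRD4780 replicate 3. DESeq2 called 850 higher and 505 lower, and limma-voom with quality weights 1654 and 1501. Of the 10 members, 0 to 1 were lower and 0 to 1 higher across the libraries left out. The other alternatives gave 1 lower and 1 higher. The lower one was Itgb6, which was chosen from this contrast, so nothing is read from its calls. The log2 fold change of Itgb6 lay between -1.12 and -0.85 over all 15 alternatives, and that of Itgb3 between 1.24 and 1.78. The difference in the Itgb6 share of the beta subunits, -8.16 percentage points, was within 1 SD of that value under plain CPM, under exon-union length and without each library. Log2 fold changes near 0 changed sign when single libraries were left out: Tgfb1 ranged from -0.08 to 0.03, Tgfb3 from -0.26 to 0.18, Ltbp1 from -0.37 to 0.07 and Itga2b from -0.10 to 0.04. In limma-voom Ltbp1 and Itga2b were at 0.06, and after thinning Itga2b was at 0.02. Itgb1 ranged from -0.07 to 0.09. For the set of 53 named genes, some of which are not printed in the text, 101 of 786 values lost the call. Of the same values, 38 gained one and 12 changed sign, and the cause was not tested. With thinning Tgfb2 was below the filter, and with a minimum count of 50 so were Tgfb2 and Tgfb3. Levels under about 3 CPM limit what could be seen for Itgb3, Tgfb2 and Tgfb3. No replicate block was fitted, because the labels give no replicate numbers. The number stems shared by titles of 2 BRD4780 and 2 vehicle libraries have no stated meaning.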
